A study of Mus musculus with 34 samples.

Results

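The genes described here encode parts of the contractile apparatus that muscle cells assemble early in development: the actins *Actc1*, *Acta1* and *Acta2*, the myosin subunits *Myh3*, *Myl1* and *Myl4*, and the troponins *Tnnc1*, *Tnni1*, *Tnnt1* and *Tnnt2*. They were taken by gene symbol, as 10 of the 22040 genes in the deposited RNA-seq table, and each had 1 row. The set was chosen with the contrast between CKO and WT in these same 6 libraries known, so the values of its members in that contrast are a description and carry no test. In brief, CKO was above WT within every replicate number for 8 of the 10 genes, as for 18.2% of the genes tested below. In each of the 10 genes the CKO values overlapped the WT values, and both libraries numbered 1 lay below the other 4. The latter held for 25.0% of all genes tested.

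RNA was sequenced from limb buds of E11.5 mouse embryos, with 3 WT and 3 CKO libraries that the study describes as biological replicates. CKO embryos were *Prrx1-Cre;Hnrnpk* fl/fl: the Prrx1-Cre recombinase, active in limb bud mesenchyme and in the calvarium, deletes the floxed part of *Hnrnpk*, which encodes a protein that binds RNA and DNA. The control embryos are labelled *Hnrnpk* WT, and the labels do not say whether they carried Prrx1-Cre or floxed alleles. Embryos of both sexes were used, how many embryos went into a library is not given in the sources used here, and the *p* values below measure the spread between these libraries. Limb muscle cells descend from the somites and not from the limb mesenchyme in which Prrx1-Cre is known to act, and whether the muscle cells of these limb buds carried the deletion was not measured. In bulk tissue of this kind, fewer cells of a type and less RNA per cell cannot be told apart.

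Muscle of the limb starts as precursor cells that leave the somites, enter the limb bud and express *Pax3* and *Lbx1*. As they commit, they switch on the regulators *Myf5* and *Myod1* and then *Myog*, leave the cell cycle, fuse into fibres and build sarcomeres, in which myosin heads pull on actin filaments. Calcium gives the signal by binding troponin C, and troponin I and troponin T pass it on to tropomyosin, which lies along the actin filament. In early embryonic muscle, cardiac and smooth muscle forms of actin and slow and cardiac forms of troponin are made beside the skeletal ones, so a gene named for the heart is no sign of heart tissue there.

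The values are FPKM, reads on a gene per kilobase of its exons and scaled to the size of the library, so levels of different genes are compared per length. The reads on listed genes numbered between 17143052 and 24627747 per library. *Hnrnpk* had an FPKM of 193, 195 and 185 in the WT libraries and 127, 142 and 135 in the CKO libraries, a value over all its exons and not over the deleted ones alone. In a principal component analysis of the tested genes, replicate 1 of both groups stood apart from the other libraries along the first axis (52.6% of the variance) and CKO from WT along the second (26.0%). The 7 globin genes, which mark red blood cells, took 13.7%, 19.5% and 20.6% of the summed FPKM in the WT libraries numbered 1, 2 and 3 and 11.7%, 32.4% and 23.5% in the CKO libraries. In the same order the 10 contractile genes together had 8.14, 53.1 and 49.5 FPKM in WT and 25.8, 82.4 and 64.1 FPKM in CKO. Both sums were lower in the libraries numbered 1 than in the other libraries of the same group, and the part of the globin share in the results below was not tested.

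To show the DNA at the start of members on which the results turn, the bases before the RefSeq start on GRCm38.p6 are printed 5′ to 3′ on the strand of the gene, for *Actc1*, the member with the highest mean FPKM, *Acta1*, the member with the most kinds of motif searched, *Myh3*, with the largest difference between the libraries numbered 1, and *Tnnc1*, with the smallest spread between the numbers relative to its difference. They lie at chr2:114052888-114053125 (minus strand), chr8:123894776-123895025 (minus strand), chr11:67078050-67078299 (plus strand) and chr14:31208062-31208311 (plus strand), and capitals mark the matches to the motifs named after them.
Actc1: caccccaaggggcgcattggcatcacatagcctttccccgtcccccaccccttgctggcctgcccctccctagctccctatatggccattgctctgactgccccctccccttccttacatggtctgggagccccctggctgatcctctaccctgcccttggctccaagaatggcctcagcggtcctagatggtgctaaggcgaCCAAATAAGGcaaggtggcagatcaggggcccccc
Acta1: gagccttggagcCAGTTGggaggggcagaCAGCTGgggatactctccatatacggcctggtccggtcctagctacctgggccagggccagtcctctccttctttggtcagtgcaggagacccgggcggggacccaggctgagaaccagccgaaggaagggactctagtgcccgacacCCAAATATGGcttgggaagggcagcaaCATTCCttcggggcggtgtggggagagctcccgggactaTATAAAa
Myh3: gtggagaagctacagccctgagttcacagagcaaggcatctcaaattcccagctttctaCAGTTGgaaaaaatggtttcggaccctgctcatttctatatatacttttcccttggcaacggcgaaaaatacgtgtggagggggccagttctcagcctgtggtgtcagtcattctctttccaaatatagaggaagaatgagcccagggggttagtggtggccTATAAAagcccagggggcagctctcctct
Tnnc1: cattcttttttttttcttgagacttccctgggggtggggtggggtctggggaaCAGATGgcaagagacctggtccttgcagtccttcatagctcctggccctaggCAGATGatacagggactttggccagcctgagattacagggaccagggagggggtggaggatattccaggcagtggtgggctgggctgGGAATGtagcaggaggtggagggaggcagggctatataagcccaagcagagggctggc

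The motifs searched on both strands were CANNTG, the E-box that MyoD family factors bind, the TATA motif TATAAA, the M-CAT motif CATTCC that TEAD factors bind, the CArG box, bound by serum response factor, and the MEF2 site. No matches overlapped in the printed stretches. *Actc1* and *Acta1* hold a CArG box, which 1.47% of 32851 RefSeq promoter windows of the same 250 bases hold, and no other member does (12 windows, as *Tnni1* and *Tnnt2* have several starts). CATTCC was found for 5 members (*Acta1*, *Acta2*, *Myl1*, *Tnnc1* and *Tnnt2*), against 12.6% of all windows, and TATAAA for 4 (*Acta1*, *Myh3*, *Myl1* and *Tnnt1*), against 12.4%. An E-box was found for 8 of the 10 members, all but *Actc1* and *Myl4*, against 66.2% of all windows. No member held a MEF2 site, found in 2.92% of all windows. These are matches of letters, not measured binding sites.

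*Actc1* (ENSMUSG00000068614, chromosome 2 of GRCm38 from 114047282 to 114053548, minus strand) encodes cardiac alpha-actin, a main actin of embryonic skeletal muscle as well. It had 2.37, 20.4 and 20.1 FPKM in the WT libraries numbered 1, 2 and 3 and 9.73, 35.6 and 25.6 FPKM in the CKO libraries, in the order of their numbers, so that WT replicate 1 was the lowest library and both libraries numbered 1 lay below the other 4. CKO was 4.11, 1.75 and 1.27 times WT within the numbers 1, 2 and 3. The lowest value rested on 69 reads (exact Poisson 95% interval 53.7 to 87.3) and that of CKO replicate 1 on 285 (253 to 320), intervals that cover counting error only. Fitted over 3 libraries a group, the log2 difference was 1.05 ± 0.84 (SE), with a mean FPKM of 14.3 ± 10.3 for WT against 23.6 ± 13.0 for CKO (SD, n = 3 each). All log2 differences are of log2(FPKM + 0.1), CKO minus WT, a scale that shrinks the differences of low genes.

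*Acta1* (ENSMUSG00000031972, chromosome 8 from 123891769 to 123894751, minus strand), the skeletal alpha-actin that replaces *Actc1* in mature fibres, was far lower per length, at 0.361, 0.925 and 0.955 FPKM in WT and 0.504, 0.816 and 1.15 FPKM in CKO. CKO was 0.882 times WT within number 2, against the direction within the other numbers. Its log2 difference was 0.16 ± 0.40 (SE), and the 10 to 42 reads behind each value make it one of the least precise members. The level of *Acta1* was between 0.0229 and 0.153 times that of *Actc1*, highest in WT replicate 1 and lowest in CKO replicate 2.

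*Acta2* (ENSMUSG00000035783, chromosome 19 from 34241090 to 34255590, minus strand) encodes smooth muscle alpha-actin, made in smooth muscle, in activated fibroblasts and for a time in embryonic skeletal muscle. It had 2.46, 16.8 and 15.6 FPKM in WT and 7.82, 23.1 and 18.6 FPKM in CKO. These values follow the order of *Actc1* with WT replicate 1 lowest and CKO replicate 2 highest, and the ratio of *Acta2* to *Actc1* stayed between 0.648 and 1.04 while *Actc1* itself ranged from 2.37 to 35.6 FPKM. CKO was 3.18, 1.37 and 1.19 times WT within the numbers, with a log2 difference of 0.78 ± 0.73 (SE).

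Among the myosin subunits, *Myh3* (ENSMUSG00000020908, chromosome 11 from 67078300 to 67102291, plus strand) encodes the embryonic myosin heavy chain, the motor of early fibres. It had 0.0824, 2.09 and 2.22 FPKM in WT and 0.976, 4.03 and 2.49 FPKM in CKO. WT replicate 1, with 9 reads (exact Poisson 95% interval 4.12 to 17.1), stood far below every other library, and CKO was 11.8, 1.93 and 1.12 times WT within the numbers 1, 2 and 3. The log2 difference was 1.21 ± 0.97 (SE). Of the 50-base words in the *Myh3* exons, 4.76% occur in other genes, *Myh13* most often, so a small part of its reads is uncertain.

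*Myl1* (ENSMUSG00000061816, chromosome 1 from 66924295 to 66945404, minus strand), an essential light chain of skeletal myosin, had 0.134, 1.45 and 1.77 FPKM in WT and 0.879, 3.55 and 2.59 FPKM in CKO. Its lowest library was again WT replicate 1, with 5 reads, and CKO was 6.57, 2.45 and 1.46 times WT within the numbers. The log2 difference of 1.28 ± 0.82 (SE) was the largest among the members tested. A pseudogene, *Mylf-ps*, shares 11.7% of the 50-base words of its exons. *Myl4* (ENSMUSG00000061086, chromosome 11 from 104550663 to 104595753, plus strand), the atrial light chain that embryonic skeletal muscle makes too, had 0.0120, 0.135 and 0.218 FPKM in WT and 0.0119, 0.439 and 0.389 FPKM in CKO. Each library numbered 1 held 1 read of *Myl4* (exact Poisson 95% interval 0.0253 to 5.57), and the others held 15 and 22 reads in WT and 39 and 43 in CKO. With 1 read on each side, the ratio of CKO to WT within number 1 is undetermined. *Myl4* had a mean FPKM of 0.201, under the 0.5 needed for the fit.

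*Tnnc1* (ENSMUSG00000091898, chromosome 14 from 31208312 to 31211729, plus strand) encodes the calcium-binding troponin C of slow and cardiac muscle. It had 0.533, 1.73 and 1.72 FPKM in WT and 1.54, 4.21 and 3.02 FPKM in CKO, and each CKO library was clearly above the WT library of its number, while CKO replicate 1 still lay below WT replicates 2 and 3. CKO was 2.89, 2.44 and 1.76 times WT within the numbers, and the log2 difference was 1.13 ± 0.49 (SE). No 50-base word of the *Tnnc1* or *Actc1* exons occurs in another gene.

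*Tnni1* (ENSMUSG00000026418, chromosome 1 from 135779434 to 135810989, plus strand), the inhibitory troponin I of slow muscle, had 0.247, 1.07 and 0.688 FPKM in WT and 0.322, 1.32 and 0.745 FPKM in CKO. Within the numbers, CKO was 1.31, 1.24 and 1.08 times WT, and the log2 difference of 0.22 ± 0.55 (SE) was small beside the range of 1.75 on the log2 scale within WT. *Tnnt1* (ENSMUSG00000064179, chromosome 7 from 4504570 to 4516382, minus strand), the troponin T of slow muscle that anchors the complex to tropomyosin, had 1.86, 8.09 and 5.95 FPKM in WT and 3.89, 8.89 and 9.06 FPKM in CKO. Its log2 difference was 0.58 ± 0.55 (SE), and CKO was 2.09, 1.10 and 1.52 times WT within the numbers. *Tnnt2* (ENSMUSG00000026414, chromosome 1 from 135836354 to 135852260, plus strand), the cardiac troponin T, had 0.0859, 0.415 and 0.343 FPKM in WT and 0.128, 0.465 and 0.519 FPKM in CKO. It was not tested, at a mean FPKM of 0.326, and CKO was 1.49, 1.12 and 1.51 times WT. The level of *Tnnt2* stayed between 0.0330 and 0.0577 times that of *Tnnt1* in all 6 libraries.

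**Figure D1:**
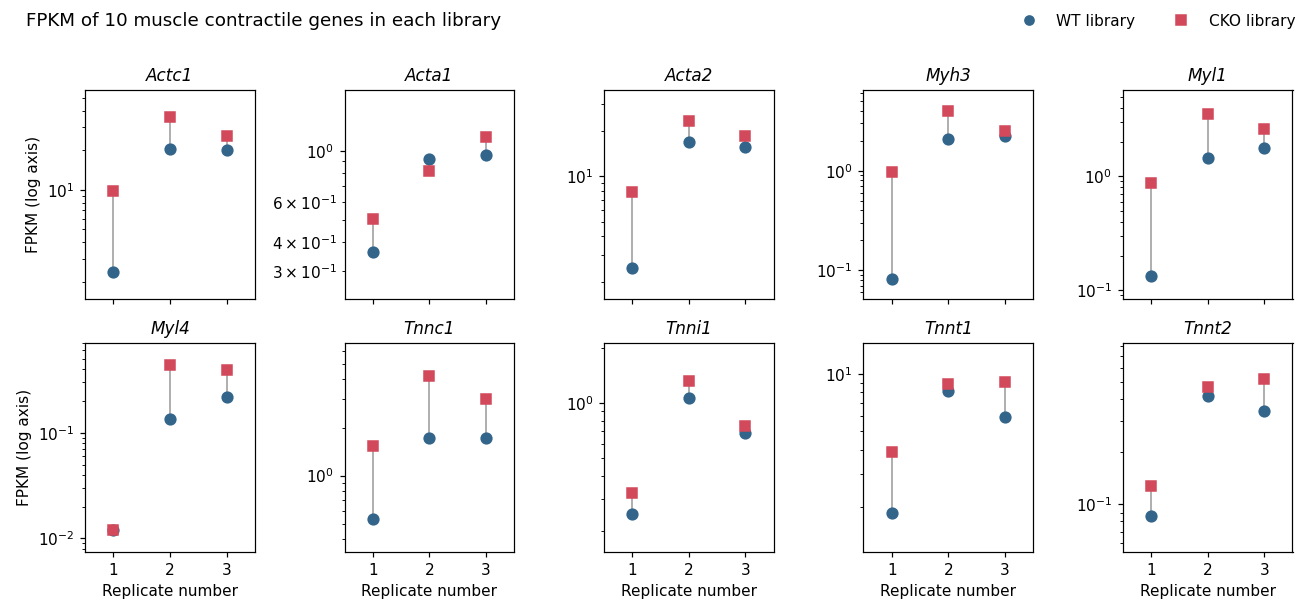
FPKM on a log axis of each contractile gene against the replicate number, with a circle for each WT library, a square for each CKO library and a line joining those of the same number. In all 10 genes both libraries numbered 1 lie lowest, as in 25.0% of all genes tested. The square lies above the circle in every number for 8 of the 10 genes, as for 18.2% of all genes tested. *Actc1* runs from 2.37 FPKM in WT replicate 1 to 35.6 FPKM in CKO replicate 2.

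Ranked by FPKM within a library, *Actc1*, *Acta2* and *Tnnt1* took the first 3 places in all 6 libraries, with *Acta2* ahead of *Actc1* in WT replicate 1 alone, and *Myl4* came last in each. *Tnnt2* was the ninth in 5 libraries and *Myh3* in WT replicate 1. Between these ends, *Tnnc1*, *Myh3*, *Myl1*, *Tnni1* and *Acta1* changed places from library to library, with group means from 0.667 to 2.92 FPKM and SDs of 0.322 to 1.53 (n = 3), so their order is not set by these data. The ratio of *Myh3* to *Actc1* was 0.0348 in WT replicate 1 and 0.0974 to 0.113 in the other 5 libraries.

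Across the set, the libraries differed by number as well as by group. In the 9 members other than *Myl4*, WT replicates 2 and 3 were 2.56 to 26.9 times WT replicate 1, and CKO replicates 2 and 3 were 1.62 to 4.13 times CKO replicate 1. Both libraries numbered 1 lay below the other 4 in all 10 members, which 25.0% of the 12305 genes tested also showed. The lowest library was WT replicate 1 for 9 members, and the highest was CKO replicate 2 for 7 and CKO replicate 3 for 3. Taken within the numbers, the median log2 difference of the 10 members was 1.20, 0.63 and 0.42 for the numbers 1, 2 and 3. CKO was above WT in every number for 8 of the 10 members, all but *Acta1* and *Myl4*, and of all genes tested 18.2% were above in every number. No member had all CKO values above all WT values, an arrangement found in 5.63% of all genes tested.

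**Figure D2:**
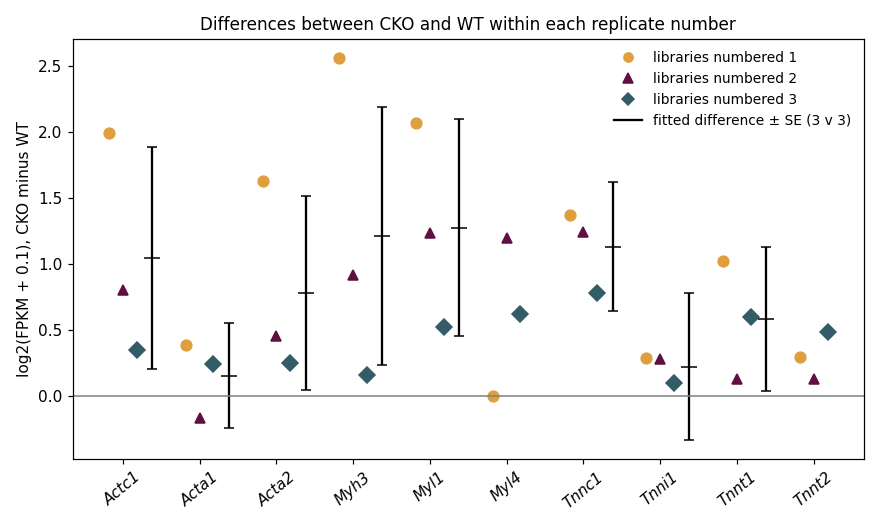
Differences in log2(FPKM + 0.1) between the CKO and the WT library of the same replicate number for each contractile gene, with the fitted difference and its standard error over 3 libraries a group as a black bar for the 8 genes tested. The differences of the libraries numbered 1 (circles) are the largest for 8 of the 10 genes, up to 2.56 for *Myh3*, and those numbered 3 (diamonds) reach 0.78 for *Tnnc1*.

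The 8 members that passed the filter had a fitted median log2 difference of 0.91, against 0.0048 over all genes tested. By limma with Benjamini-Hochberg adjustment, 0 of these 8 passed an adjusted *p* of 0.05, 0 had an unadjusted *p* under 0.05 and 0 passed by limma voom on reads recovered from the FPKM, where 0.0569%, 8.31% (in either direction) and 0.065% of all genes did, the first and last with the higher value in CKO. With the replicate number as a block, 3 passed (*Actc1*, *Myl1* and *Tnnc1*), where 1.13% of all genes did. With the libraries numbered 2 and 3 alone, 4 passed (those 3 and *Myh3*), at a median of 0.45, where 7.05% of all genes did. The rule used this contrast, so nothing is read from these counts. Without WT replicate 1 the median of the 8 was -0.01, with *Actc1*, *Myh3*, *Myl1* and *Tnnc1* above 0 and *Acta1*, *Acta2*, *Tnni1* and *Tnnt1* below, as the comparison then set CKO replicate 1 against WT replicates 2 and 3 only. Without each of the other libraries in turn it was 0.56 to 1.38.

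The other genes of the skeletal sarcomere, 30 genes of which 13 had a mean FPKM of at least 0.5, had a median log2 difference of 0.35, with 12 above 0. Without the block, 0 of the 13 passed an adjusted *p* of 0.05 by limma and 0 by limma voom, and 1 had an unadjusted *p* under 0.05. With the block, *Mylpf*, *Actn2* and *Smyd1* passed, 3 of 13 where 1.13% of all genes tested did. This list, like the others here, was chosen with earlier results of these data known, so its counts are no independent support. *Mylpf*, the regulatory light chain of fast skeletal myosin, had 2.56, 6.69 and 8.20 FPKM in WT and 3.49, 15.2 and 10.8 FPKM in CKO, a log2 difference of 0.67 ± 0.59 (SE; limma adjusted *p* = 0.837, and 0.0340 with the block). *Actn2*, an alpha-actinin of the Z disc that anchors actin filaments, had 0.219, 0.539 and 0.435 FPKM in WT and 0.655, 1.13 and 0.862 FPKM in CKO. Every CKO library was above every WT library, as for 5.63% of all genes tested. The log2 difference of *Actn2* was 1.01 ± 0.32 (SE; limma adjusted *p* = 0.461, and 0.0458 with the block). *Smyd1*, a methyltransferase needed for sarcomere assembly, had 0.110, 0.763 and 0.504 FPKM in WT and 0.340, 1.52 and 1.13 FPKM in CKO, a log2 difference of 1.002 ± 0.63 (SE; limma adjusted *p* = 0.739, and 0.0450 with the block). With the block on values scaled to the sum without globin genes, where 0.771% of all genes passed with the higher value in CKO, *Mylpf* did (limma adjusted *p* = 0.0480) and *Actn2* and *Smyd1* did not (0.0626 and 0.0613). By limma voom with the block, where 0.911% did, *Actn2* and *Smyd1* passed and *Mylpf* did not (adjusted *p* = 0.0628).

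The tropomyosins *Tpm1* and *Tpm2*, which other cell types make as well, were the highest of these genes. *Tpm1* had 21.1, 29.6 and 30.0 FPKM in WT and 24.2, 28.5 and 28.8 FPKM in CKO, a log2 difference of 0.03 ± 0.17 (SE) that turned to -0.08 under the scaling without globin genes, and *Tpm2* had 0.26 ± 0.18 (SE). *Mybph*, a myosin-binding protein, had 0.71 ± 0.34 (SE; limma adjusted *p* = 0.642, and 0.144 with the block). With replicates 2 and 3 alone, *Mybph* passed (limma adjusted *p* = 0.0180) beside *Mylpf*, *Actn2* and *Smyd1*, 4 of 13 where 7.05% of all genes did with the higher value in CKO. The adult and perinatal heavy chains *Myh1*, *Myh2*, *Myh4* and *Myh8*, named after their values were seen, were each at or under 0.0469 FPKM in every library. Genes of fast fibres in the same list were not that low. Over the 6 libraries, *Tnnc2*, *Actn3*, *Tnnt3* and *Tnni2* had a mean FPKM of 1.37, 1.36, 0.624 and 0.563. Without WT replicate 1 the median of the 13 genes was 0.09. The log2 differences of *Mylpf*, *Actn2* and *Smyd1* were then 0.17, 0.72 and 0.41.

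The 19 regulators and precursor genes of limb muscle, 16 of them tested, had a median log2 difference of 0.24 (0.13 without WT replicate 1), and all 16 were above 0. By limma, 0 passed without the block and 0 with it, 0 passed by limma voom, and 1 had an unadjusted *p* under 0.05. With replicates 2 and 3 alone, 2 passed (*Met*, the receptor that guides precursors into the limb, and *Pax3*), where 7.05% of all genes did with the higher value in CKO. *Met* had 4.60, 3.93 and 4.17 FPKM in WT and 5.82, 6.90 and 5.38 FPKM in CKO. Every CKO library of *Met* was above every WT library, as for 5.63% of all genes tested. Its log2 difference was 0.50 ± 0.14 (SE; limma adjusted *p* = 0.382, and 0.0576 with the block). Against the scaling without globin genes, which moved the median of all genes to -0.10, the median of the regulators with the block was 0.14 with 12 above 0. *Myog*, the regulator of terminal differentiation, had 2.23, 13.6 and 11.2 FPKM in WT and 6.84, 15.5 and 12.7 FPKM in CKO. *Myod1*, the regulator of commitment, had 1.97, 6.80 and 6.63 FPKM in WT and 7.33, 6.82 and 7.50 FPKM in CKO. Both were lowest in WT replicate 1, but *Myod1* in CKO replicate 1 was level with replicates 2 and 3, whereas *Myog* and the contractile genes were not. Their log2 differences were 0.65 ± 0.64 (SE; limma adjusted *p* = 0.855, and 0.125 with the block) for *Myog* and 0.68 ± 0.43 (SE; limma adjusted *p* = 0.739, and 0.188 with the block) for *Myod1*.

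*Mymx*, which makes myoblast membranes fuse, had 0.108, 1.38 and 1.52 FPKM in WT and 0.646, 1.12 and 1.71 FPKM in CKO, a log2 difference of 0.57 ± 0.77 (SE) that rested on WT replicate 1 and was -0.39 without it. *Myog* likewise had -0.16 without that library. *Mef2d*, a partner of the myogenic factors, had a log2 difference of 0.15 ± 0.21 (SE). *Pax3*, the mark of migrating precursors, ran the other way across the numbers, with 3.30, 1.13 and 1.32 FPKM in WT and 3.14, 1.65 and 2.01 FPKM in CKO, so that the libraries numbered 1 were its highest. *Lbx1*, another precursor gene, lay between 4.28 and 5.40 FPKM in all 6 libraries. *Met*, *Pax3* and *Lbx1* were picked to be described after their values were seen.

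Of 21 genes of the muscle membrane, its synapse and calcium release, 12 were tested, with a median log2 difference of 0.14, 9 above 0 and 3 below. None passed by limma without the block or by limma voom without it. An unadjusted *p* under 0.05 was found for 2, *Casq1* and *Dmd*, both lower in CKO, as for 8.31% of all genes tested in either direction. *Casq2*, which stores calcium in the sarcoplasmic reticulum, had 0.0203, 0.534 and 0.503 FPKM in WT and 0.222, 1.39 and 0.935 FPKM in CKO, a log2 difference of 1.15 ± 0.77 (SE; limma adjusted *p* = 0.767, 0.0492 with the block, and 0.0503 with the block under the scaling without globin genes). With the block 1.13% of all genes passed with the higher value in CKO. Without WT replicate 1 the log2 difference of *Casq2* was 0.36. By limma voom with the block *Casq2* passed (adjusted *p* = 0.0324), and *Dmd*, the gene of dystrophin, was lower in CKO (log2 difference -0.68 ± 0.16 SE; adjusted *p* = 0.0101), as 5.41% of all genes were. By limma *Dmd* did not pass, at -0.50 ± 0.20 (SE; adjusted *p* = 0.564, and 0.297 with the block). *Casq1*, the counterpart of *Casq2* in fast fibres, had 1.05, 1.41 and 0.846 FPKM in WT and 0.538, 0.669 and 0.795 FPKM in CKO. Every CKO library was below every WT library, as for 8.86% of all genes tested, with a log2 difference of -0.64 ± 0.24 (SE; limma adjusted *p* = 0.553, and 0.169 with the block). The *Casq1* exons share 156 bases with a gene on the opposite strand. *Rapsn*, which clusters acetylcholine receptors, had a log2 difference of 0.71 ± 0.47 (SE; limma adjusted *p* = 0.760). With replicates 2 and 3 alone, *Casq2* and *Rapsn* passed (limma adjusted *p* = 0.0040 and 0.0190), 2 of 12 where 7.05% of all genes did with the higher value in CKO. The median of the list was then -0.04, with 5 of 12 above 0. The calcium pump *Atp2a1*, the channel subunit *Cacnb1* and the receptor subunit *Chrnb1*, the highest of the list, had 0.46 ± 0.46, 0.07 ± 0.25 and 0.07 ± 0.47 (SE), and the last 2 turned to -0.03 each under the scaling without globin genes.

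**Figure D3:**
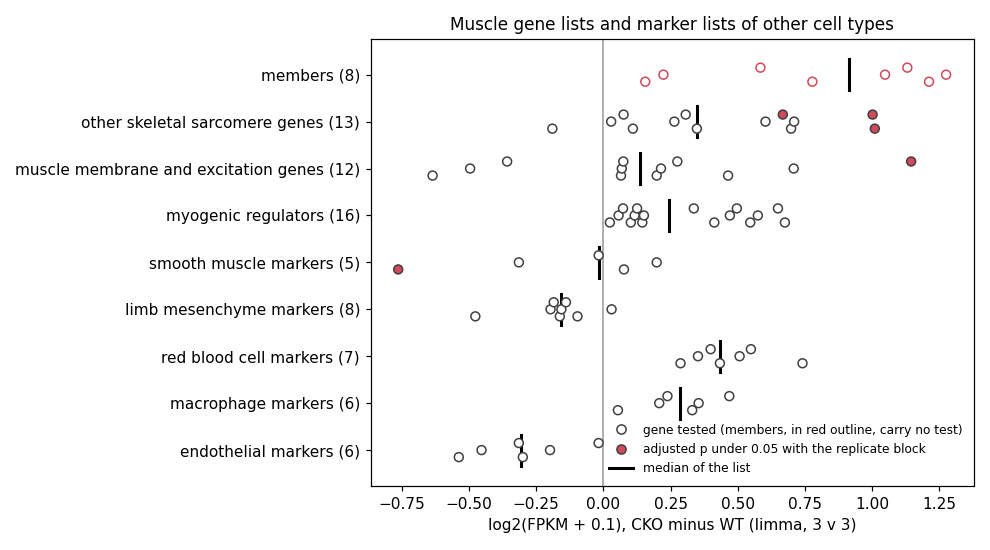
Fitted log2 differences of the tested genes in each list on the horizontal axis, CKO minus WT, with the number tested in parentheses, a black bar at the median, red outlines for the contractile genes, which carry no test, and filled circles for other genes with a limma adjusted *p* under 0.05 with the replicate block. The median is 0.91 for the contractile genes, which were chosen on this contrast, 0.35 for other sarcomere genes, 0.24 for regulators, -0.02 for smooth muscle markers and -0.16 for limb mesenchyme markers.

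*Acta2* is also the actin of smooth muscle, so the markers of smooth muscle were set beside it. Of 10 such markers 5 were tested, with a median log2 difference of -0.02, 2 above 0 and 3 below, and their summed FPKM was 24.9 to 38.1 in WT and 23.6 to 35.0 in CKO. Without the block 0 passed by limma and 0 by limma voom, and 1 had an unadjusted *p* under 0.05. The defining markers *Myh11*, *Cnn1* and *Myocd* were each at or under 0.199 FPKM in every library, and *Myocd* was at 0 in WT replicate 1. These low genes were not tested. *Myh11*, the smooth muscle myosin heavy chain, had 0.0251, 0.0378 and 0.0553 FPKM in WT and 0.0750, 0.0788 and 0.0948 FPKM in CKO. Every CKO library was above every WT library, as for 5.63% of all genes tested, a share that leaves out genes as low as *Myh11*. *Cnn1* and the smooth muscle actin *Actg2* were likewise higher in CKO within each number. *Myl9*, a regulatory light chain of smooth and non-muscle myosin, had 10.3, 25.0 and 22.0 FPKM in WT and 10.7, 24.0 and 21.3 FPKM in CKO. It shared with *Acta2* the low values of both libraries numbered 1, but not the distance between WT and CKO within number 1, and its log2 difference was -0.02 ± 0.40 (SE). *Tagln*, an actin-binding protein of smooth muscle, ranged from 1.86 to 3.02 FPKM, and its ratio to *Acta2* ran from 0.121 to 0.885, with a log2 difference of 0.08 ± 0.20 (SE) that was -0.03 under the scaling without globin genes. *Smtn*, a protein of the smooth muscle cytoskeleton, had -0.31 ± 0.19 (SE; limma adjusted *p* = 0.721), and with replicates 2 and 3 alone it fell (limma adjusted *p* = 0.0288), as 8.0% of all genes tested did. *Des*, the intermediate filament of all muscle, had 0.20 ± 0.25 (SE). *Mylk*, the kinase that activates smooth muscle myosin, had 1.79, 1.28 and 1.69 FPKM in WT and 1.09, 0.751 and 0.838 FPKM in CKO, a log2 difference of -0.76 ± 0.21 (SE; limma adjusted *p* = 0.368), and with the block it fell (limma adjusted *p* = 0.0434), as 1.68% of all genes tested did. Its exons share 548 bases with a gene on the opposite strand.

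Some members are named for the heart, so cardiac markers were read as well. Of 12 such markers, *Nppb* and *Nkx2-5* were at 0 in all 6 libraries, 1 was tested, and their summed FPKM was 2.69 to 3.90 in WT and 1.07 to 1.93 in CKO. The gene tested was *Tnni3*, the cardiac troponin I, which made up most of the WT sums. Without it the sums of the other 11 overlapped, at 0.990, 0.891 and 1.19 FPKM in WT and 1.12, 0.669 and 0.553 FPKM in CKO. *Tnni3* had 2.23, 1.80 and 2.71 FPKM in WT and 0.803, 0.405 and 0.589 FPKM in CKO, every CKO library below every WT library, as for 8.86% of all genes tested. Its log2 difference was -1.77 ± 0.26 (SE; limma adjusted *p* = 0.108), and it fell with the replicate block (limma adjusted *p* = 6.6e-04), as 1.68% of all genes tested did. It shares 86 exon bases with *Dnaaf3* on the same strand, so part of its reads is uncertain. The slow form *Tnni1*, at 0.22 ± 0.55 (SE), was chosen on this contrast, so the difference between these genes was not tested.

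Markers of other cells in the limb bud were unequal between libraries too, and their part in the values above was not tested. All 7 globin genes had a fitted log2 difference above 0, with a median of 0.43. Within the numbers 1, 2 and 3 their median was -0.26, 1.07 and 0.53, and that of the 10 contractile genes was 1.20, 0.63 and 0.42. The 6 macrophage markers had a median of 0.28, all above 0, with a summed FPKM of 13.0 to 22.8 in WT and 15.5 to 27.4 in CKO. The 6 endothelial markers had a median of -0.31, all below 0, with sums of 21.0 to 30.3 for WT and 15.0 to 24.1 for CKO. Of 6 pericyte markers, 3 were tested, with a median of -0.39, 1 above 0, and sums of 46.4 to 60.1 for WT and 39.0 to 63.7 for CKO. The 8 limb mesenchyme markers, which check the labelled tissue, were present in all libraries, with a median log2 difference of -0.16, 1 above 0, and summed FPKM from 296 to 306 for WT and from 251 to 282 for CKO. In none of these lists did a gene pass by limma with or without the block, and 1 endothelial and 1 mesenchyme marker had an unadjusted *p* under 0.05. By limma voom with the block, *Hbb-bt* and *Hba-a2* were higher in CKO (adjusted *p* = 0.0036 and 0.0304) and *Kdr*, *Tie1*, *Notch3* and *Twist2* lower (0.0290, 0.0171, 0.0160 and 0.0122). In that fit 0.911% of all genes passed with the higher value in CKO and 5.41% with the lower, and the median of all genes was -0.093. With replicates 2 and 3 alone, *Hbb-bt* and *Hba-a2* were higher in CKO (limma adjusted *p* = 0.0013 and 0.0212). *Cspg4*, *Notch3* and *Twist2* were then lower (limma adjusted *p* = 0.0406, 0.0040 and 0.0021). In that setting 7.05% of all genes tested were higher and 8.0% lower. Of 7 somite and axial markers, with sums of 38.1 to 58.8 for WT against 39.9 to 51.4 for CKO, 5 were tested, all below 0 with a median of -0.15. *Pax1*, a gene of the somite part that forms the axial skeleton, fell with the block, as 1.68% of all genes tested did (log2 difference -0.81 ± 0.25 SE; limma adjusted *p* = 0.0414, and 0.430 without the block). With replicates 2 and 3 alone, *Pax1* and *Pax9* fell (limma adjusted *p* = 9.3e-06 and 0.0155), as 8.0% of all genes tested did.

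**Figure D4:**
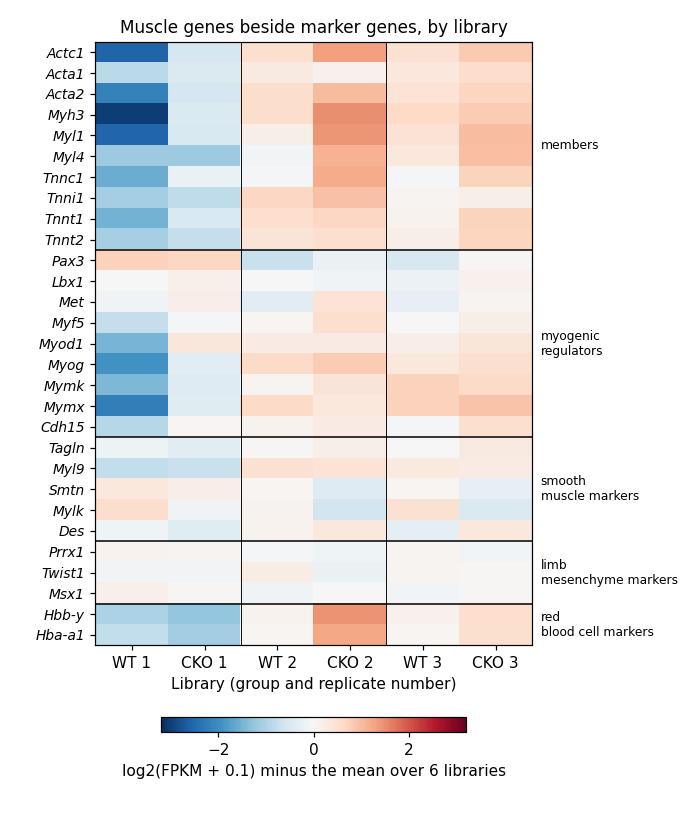
Log2(FPKM + 0.1) of each gene minus its mean over the 6 libraries, with libraries in columns ordered by replicate number and genes in rows by list, blue below and red above the mean. WT replicate 1 is lowest for 9 of the 10 contractile genes, *Pax3* is highest in the libraries numbered 1, and the globin genes *Hbb-y* and *Hba-a1* are lowest in CKO replicate 1.

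To find genes with the most similar pattern, log2(FPKM + 0.1) over the 6 libraries was correlated with the mean of the 7 tested members other than *Acta2*, each standardized. The points are 6 libraries that share their replicate numbers and the step between number 1 and the rest, so the coefficients are a description. Of 1821 other tested genes with a range of at least 1 on the log2 scale, 218 (12.0%) had a Pearson *r* of at least 0.9, so a high value is common here. *Acta2* had *r* = 0.996, and the lowest member was *Acta1* with 0.881. The 10 most similar of these 1821 genes were *Heyl*, a Notch target (0.996), *mt-Nd3*, a mitochondrial complex I subunit (0.993), *Mrln*, a micropeptide that acts on the muscle calcium pump (0.991), *Kcne1l*, a potassium channel subunit (0.989), *Cryab*, a small heat shock protein of muscle and lens (0.988), *Casq2* (0.988), *Sct*, the hormone secretin (0.986), *Gabrp*, a receptor subunit for GABA (0.986), *Klhl41*, a protein of sarcomere assembly (0.985), and *Myog* (0.985). *Chrna1*, a subunit of the muscle acetylcholine receptor, had 0.993 with a range of 0.93, under the minimum of 1. *Cryab* had 0.113, 1.05 and 1.02 FPKM in WT and 0.560, 1.48 and 1.11 FPKM in CKO, and *mt-Nd3* had 2.55, 8.16 and 7.64 FPKM in WT and 4.92, 9.61 and 8.07 FPKM in CKO. Both show the step from WT replicate 1 through CKO replicate 1 to the other libraries that the contractile genes show. Within the lists, *Myl9* had 0.899, *Tagln* 0.730, *Mylk* -0.683 and *Pax3* -0.751, the 7 red cell genes had 0.328 (*Hbb-bs*) to 0.912 (*Hbb-bt*) and the 6 macrophage genes 0.305 (*Csf1r*) to 0.946 (*C1qc*).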

How the data were processed

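RNA-seq of 3 WT and 3 CKO limb bud libraries was analysed, and the study's chromatin assays (ATAC-seq, CUT&RUN, Hi-C) were not used here. The authors deposited FPKM per gene, from libraries made with a stranded mRNA kit. The submitters' processing notes list cutadapt 2.5, HISAT2 2.1.0, Bowtie2 2.11.1, featureCounts 1.6.3, MACS2 2.1.2 and mm10, with no role, and whether counting used the strand is not given in the sources used here. Of the gene identifiers, 22010 (99.9%) were found in GENCODE vM21 (GRCm38). Multiplied by merged exon length, the FPKM of 92.7% of the genes came out as whole reads in all 6 libraries (tolerance 0.1 reads), which gave the reads quoted, except for *Acta2*, where they are approximate. The reads were 0.947 to 1.11 times the library sizes implied, so the values carry a scaling between libraries. Depth limits low genes, as the reads show.

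FPKM were compared on log2(FPKM + 0.1) with limma 3.58.1 (trend) in R 4.3.3, for the 12305 genes whose mean FPKM reached 0.5, with Benjamini-Hochberg adjustment over all of them. The fit was tested on simulated data. Deviations from the group mean correlated by 0.64, 0.44 and 0.27 between the WT and CKO libraries numbered 1, 2 and 3, and by -0.60 to 0.49 between different numbers. These values match the libraries numbered 1 only. CKO replicate 3 correlated by 0.49 with WT replicate 2 and by 0.27 with WT replicate 3. Treating the numbers 2 and 3 as pairs is thus an assumption, as neither the labels nor the study say what a number stands for. The block result is given where it changes a call.

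The contractile genes and all lists were chosen with earlier results of these data known. In each muscle list the genes named are those called with or without the block, the 3 highest and the 3 with the largest differences, and in lists of other cells those called. Genes named otherwise were picked after their values were seen, unless they are defining markers. In the list of regulators, 1 gene is left out and not reported here. Alternatives were other pseudocounts, filters, scalings and variance models, limma voom on recovered reads, the replicate block, replicates 2 and 3 alone, and each library left out. Promoter bases come from RefSeq (GRCm38.p6), with 10 of 10 members matched, and are printed where no exon is annotated.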

Additional observations from a re-analysis of the deposited data

How the results depend on the processing

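The number of genes called was 8 without the block, 14 with quantile normalization, 4 with the scaling without globin genes, 346 with the replicate block, 471 with the replicate block and that scaling, 777 with the block by limma voom, 1851 with replicates 2 and 3 alone, and 1 to 23 with each library left out (23 without CKO replicate 1, 3 without WT replicate 2 and 1 without the third library of WT or either of CKO replicates 2 and 3). In this balanced design the block cannot move a fitted difference, so the medians of the contractile genes, other sarcomere genes, regulators, membrane genes and smooth muscle markers were by construction 0.91, 0.35, 0.24, 0.14 and -0.02 in both fits. By limma voom with the block they were 0.59, 0.26, 0.13, 0.06 and -0.14. Within limma on FPKM, the block changed no call of a named gene other than those given above. The median of the smooth muscle markers was 0.14 without a filter and -0.22 to 0.28 with each library left out, and that of the membrane genes was -0.04 with replicates 2 and 3 alone and -0.01 without WT replicate 1. The median of the 8 contractile genes tested was 1.501 within number 1, and 0.75 with a pseudocount of 1. Over all settings that gave a value, the log2 differences of *Actc1*, *Myh3*, *Myl1* and *Tnnc1* stayed above 0, at 0.03 to 1.59, 0.0031 to 1.84, 0.32 to 1.83 and 0.62 to 1.52, while those of *Acta1*, *Acta2*, *Tnni1* and *Tnnt1* ran from -0.24 to 0.43, -0.11 to 1.25, -0.27 to 0.68 and -0.03 to 1.001, below 0 without WT replicate 1 and, for *Acta1*, without CKO replicate 3 (-0.093) and, for *Tnni1*, without CKO replicate 2 (-0.19). *Acta1* and *Tnni1* gave no value at a mean FPKM of at least 1.

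Directions turned for genes with small differences. With the scaling without globin genes, with or without the block, the log2 difference was -0.078 for *Tpm1*, -0.026 for *Cacnb1*, -0.033 for *Chrnb1* and -0.027 for *Tagln*. By limma voom it was -0.069 for *Tpm1*, -0.054 for *Cacnb1*, -0.043 for *Chrnb1* and -0.0048 for *Tagln*, and with the block -0.071 for *Tpm1*, -0.025 for *Cacnb1* and -0.17 for *Chrnb1*. With replicates 2 and 3 alone it was -0.056 for *Tpm1*, -0.059 for *Mymx*, -0.026 for *Atp2a1*, -0.31 for *Cacnb1* and -0.26 for *Chrnb1*. *Tpm1* had -0.020 with quantile normalization and *Chrnb1* -0.0019 with a pseudocount of 1. With each library left out the ranges were -0.14 to 0.12 for *Tpm1*, -0.16 to 1.12 for *Myog*, -0.067 to 0.33 for *Mef2d*, -0.39 to 1.09 for *Mymx*, -0.14 to 0.81 for *Atp2a1*, -0.18 to 0.30 for *Cacnb1*, -0.50 to 0.36 for *Chrnb1*, -0.41 to 0.34 for *Myl9* and -0.054 to 0.28 for *Tagln*. The median of all genes tested was itself -0.10 with the scaling without globin genes and -0.093 by limma voom, each with or without the block. It was 0.0048 by limma on the FPKM as deposited. The cause of these changes was not tested.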
